A study of Mus musculus with 20 samples.

Results

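Carbonic anhydrases were examined in brain RNA of mice that the labels describe as null mutants. The members were the 6 genes Car2, Car4, Car7, Car8, Car9 and Car14, taken by gene symbol from 15245 probes, which named 7117 genes. Each member had 1 probe, and all 6 were among the 8319 features (genes, or probes without a single gene name) that had enough values to be tested. The study used 20 arrays with 2 channels, on which RNA of a null mutant was set against a wild-type pool from the same brain region. Each of the 4 regions (cortex, hippocampus, cerebellum, brain stem-diencephalon) had 5 arrays, and the labels state that the RNA was amplified. In each region 3 arrays carried the null RNA in channel 1 and 2 were dye swaps. The sources used here do not give the mutant allele, strain, age or sex of the mice. Arrays of a region with the same number were averaged as 1 replicate, which gave 4 replicates in cortex (with a swapped array that has no number) and 3 in each other region.

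Carbonic anhydrases catalyse the reversible hydration of carbon dioxide to bicarbonate and a proton. In brain they work beside sodium-proton exchangers, bicarbonate transporters and lactate transporters, which move acid and base across membranes. The family has cytosolic members (Car2, Car7), members whose active site faces the outside of the cell (Car4, Car9, Car14), and related proteins without catalytic activity (Car8). The question asked here is whether the RNA of these genes differed between null mutants and the wild-type pool.

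The promoters of Car7 and Car9 are shown because Car7 was the only member with a called difference and Car9 is a textbook target of the hypoxia-inducible factor. RefSeq windows for the assembly GRCm38.p6, each of the 250 bases before a listed gene start, were found for 4 of the 6 members, with 3 starts for Car7. Windows for Car2 and Car8 were not analysed here. In the lines that follow, capitals mark ACGTG or GCGTG, the core letters of the hypoxia response element, and TGACG, the core of the cAMP response element, on either strand.
Car7, the start farthest upstream (chr8:104534450-104534699, plus strand): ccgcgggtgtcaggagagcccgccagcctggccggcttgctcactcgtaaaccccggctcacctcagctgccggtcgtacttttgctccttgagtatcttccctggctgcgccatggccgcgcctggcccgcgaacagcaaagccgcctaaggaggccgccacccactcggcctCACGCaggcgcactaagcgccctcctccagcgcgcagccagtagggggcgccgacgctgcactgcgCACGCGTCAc
Car7, the middle start (chr8:104540557-104540806, plus strand): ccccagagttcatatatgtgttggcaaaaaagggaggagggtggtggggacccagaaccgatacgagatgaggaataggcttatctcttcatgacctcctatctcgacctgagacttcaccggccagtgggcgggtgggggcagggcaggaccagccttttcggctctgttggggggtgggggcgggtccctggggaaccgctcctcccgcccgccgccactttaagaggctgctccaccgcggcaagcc
Car7, the start farthest downstream (chr8:104541059-104541308, plus strand): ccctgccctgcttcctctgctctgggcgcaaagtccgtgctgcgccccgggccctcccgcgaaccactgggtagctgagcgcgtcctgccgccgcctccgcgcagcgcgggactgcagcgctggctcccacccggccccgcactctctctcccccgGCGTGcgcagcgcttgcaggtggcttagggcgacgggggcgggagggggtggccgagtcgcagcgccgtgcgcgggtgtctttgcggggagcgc
Car9 (chr4:43506776-43507025, plus strand): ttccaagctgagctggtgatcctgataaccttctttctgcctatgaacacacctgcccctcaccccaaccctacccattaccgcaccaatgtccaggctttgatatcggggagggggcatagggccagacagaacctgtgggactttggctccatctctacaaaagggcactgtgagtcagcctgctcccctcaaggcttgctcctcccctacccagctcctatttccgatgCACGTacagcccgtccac
The upstream Car7 window held GCGTG on the opposite strand 76 and 10 bases before the start. It also held TGACG on the opposite strand 6 bases before the start, where TGACG overlaps the nearer GCGTG by 1 base. The downstream Car7 window held GCGTG 94 bases before the start, and the middle one held neither core. Car9 had ACGTG on the opposite strand 18 bases before its start, and the Car14 window had it 7 bases before the start. Of 32851 windows of the same length, 16.6% held ACGTG, 28.2% held GCGTG and 17.8% held TGACG on either strand. GGGCGG, the GC box, was in 32.7% of windows and in the middle and downstream windows of Car7. CACGTG, the E-box, was in 6.02% of windows and TATAAA, the TATA box, in 12.4%, and no member window held either. A match is a description of these letters only.

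All values are log2 ratios of null over wild type, below 0 where the null RNA gave less signal. The sources used here state neither the log base nor which channel was divided by which, and with the reverse order all signs would turn. An array held 6793 to 13963 probe values, and precision is limited by how many arrays there are. One swapped array was deposited nearly unchanged under cerebellum (number 1) and brain stem-diencephalon (number 2), with a correlation of 0.9952 over 6748 probes against 0.743 for the next closest pair. It is called the repeated array, and values without it are given beside the results that it moved most. Eif2s3y, a gene of the Y chromosome, was at -1.36 to -0.437 on the number 1 arrays and at 0.935 to 1.64 on the others. These ranges leave out the repeated array, whose copies were at 1.71 and 1.72. The repeated array was thus unlike the other number 1 arrays, although it has number 1 under cerebellum. The part of sex in the members' ratios was not tested. Ratios carry no levels, so the order of the members' levels across regions, and marker levels of a region, could not be given. Fewer cells of a type and less RNA per cell cannot be told apart in such tissue RNA. The labels do not say that different numbers are different animals. By Eif2s3y number 1 stood apart from the rest, yet the other numbers may still be repeats of one sample. The p-values may thus cover spread that is partly only technical, and the own spread of the wild-type pool is left out.

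Car7, the cytosolic carbonic anhydrase of neurons that supplies bicarbonate for GABA-A receptor currents, was likely lower in the null RNA. In cerebellum it fell by 0.79 ± 0.12 log2 units (SE, n = 3, 1.73-fold). In the mean of the 4 regions it fell by 0.57 ± 0.07 (SE, n = 12, 1.48-fold). Without the repeated array the values were -0.67 ± 0.13 and -0.51 ± 0.09. The SE of the mean treats the 12 replicates as independent, though those of one number may share animals across regions. Car7 lay below 0 on all 19 arrays with a value, the repeated array counted under both regions, and in 12 of 12 replicates. Among all features, 0.926% were below 0 on every array with a value and 2.34% in every replicate.

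In cortex the Car7 ratio was -0.29 on array 1, -0.51 on array 2, -0.65 on its dye swap and -0.33 on array 3, and the unnumbered array was empty. In hippocampus the channel 1 arrays gave -0.19, -0.46 and -0.37, and the swapped arrays -0.11 (number 1) and -0.79 (number 2). In cerebellum the channel 1 arrays gave -0.39, -0.57 and -0.75, and the swapped arrays -1.21 (the repeated array) and -0.90. The cerebellar values thus reached lower than those of cortex and overlapped them at their upper end. In brain stem-diencephalon the channel 1 arrays gave -0.20, -0.48 and -0.49, and the swapped arrays -0.48 and -1.21 (the repeated array). The repeated array held the lowest value of both regions. The channel 1 arrays of number 1 were the highest of their region in cortex, cerebellum and brain stem-diencephalon, at a mean of -0.27 over the 4 regions, against -0.51 for number 2 and -0.48 for number 3.

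**Figure D1:**
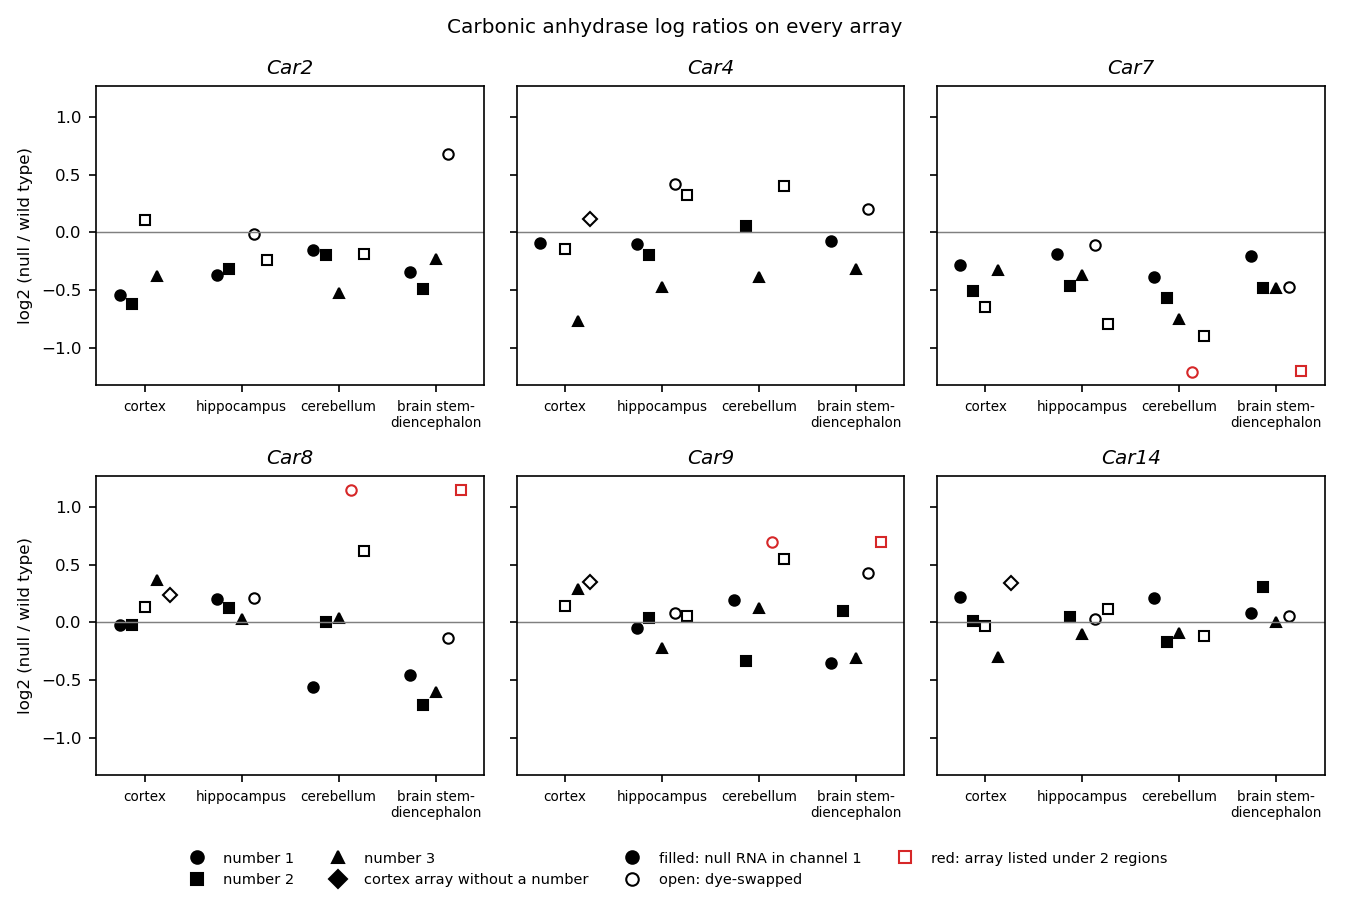
Log2 ratio of null over wild type (y axis) on every array with a value for the 6 carbonic anhydrases, by region (x axis). Marker shapes give the array number, filled markers have the null RNA in channel 1, open markers are dye swaps, and the red edge marks the repeated array. Car7 lies below 0 on all 19 arrays, from -1.21 to -0.11, while the other members have values on both sides of 0.

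The fitted Car7 ratio in cerebellum was the 43rd lowest of 8319 (95% interval -1.05 to -0.54, adjusted p = 0.00478), and Car7 was the only member called there by limma's moderated test. In that region 3.07% of all features passed the adjusted threshold of 0.05 in either direction, and 1.57% passed as lower. Without the repeated array the cerebellar value was -0.67 ± 0.13 (adjusted p = 0.0415), where 0.577% of features passed. The call ended without cerebellum replicate 2 (adjusted p = 0.0619), without cerebellum replicate 3 (adjusted p = 0.0515) and under robust moderation with a variance trend (adjusted p = 0.0537), at values of -0.83, -0.76 and -0.79.

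In the other regions Car7 missed the threshold. The fitted ratio was -0.47 ± 0.14 in cortex (SE, n = 3, limma adjusted p = 0.0609), -0.42 ± 0.12 in hippocampus (n = 3, adjusted p = 0.153) and -0.59 ± 0.12 in brain stem-diencephalon (n = 3, adjusted p = 0.0634). Their 95% intervals, -0.76 to -0.17, -0.67 to -0.16 and -0.85 to -0.34, lay below 0 before adjustment. The brain stem-diencephalon value was -0.49 without the repeated array (adjusted p = 0.209), where 0.301% of features passed. The order of the ratios from lowest was cerebellum, brain stem-diencephalon, cortex and hippocampus. Neighbours in that order differed by 0.20, 0.12 and 0.05 in size, each less than 2 standard errors of the difference, which were 0.16 each. The ends of the order, hippocampus and cerebellum, differed by 0.38 ± 0.16 (95% interval 0.04 to 0.72, unadjusted p = 0.0328, adjusted p = 0.999, limma), and by 0.27 without the repeated array. The F test of equal ratios in the 4 regions gave an unadjusted p of 0.133 for Car7. A difference of the Car7 ratio between regions was therefore not shown.

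Over the mean of the 4 regions, Car7 was the 58th lowest feature (limma adjusted p = 0.000486, 95% interval -0.73 to -0.41) and the only member of 6 that passed. In this comparison 26.1% of all features passed in either direction and 12.9% as lower, and without the repeated array 16.9% passed. Without that array Car7 stood at -0.51 ± 0.09 (adjusted p = 0.00409, n = 12). The replicates of the mean count the repeated array under both regions and may share animals across regions, so its SE may be too small. Car7 passed here in all alternatives in which it was tested, with adjusted p from 2.78e-07 to 0.00409.

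**Figure D2:**
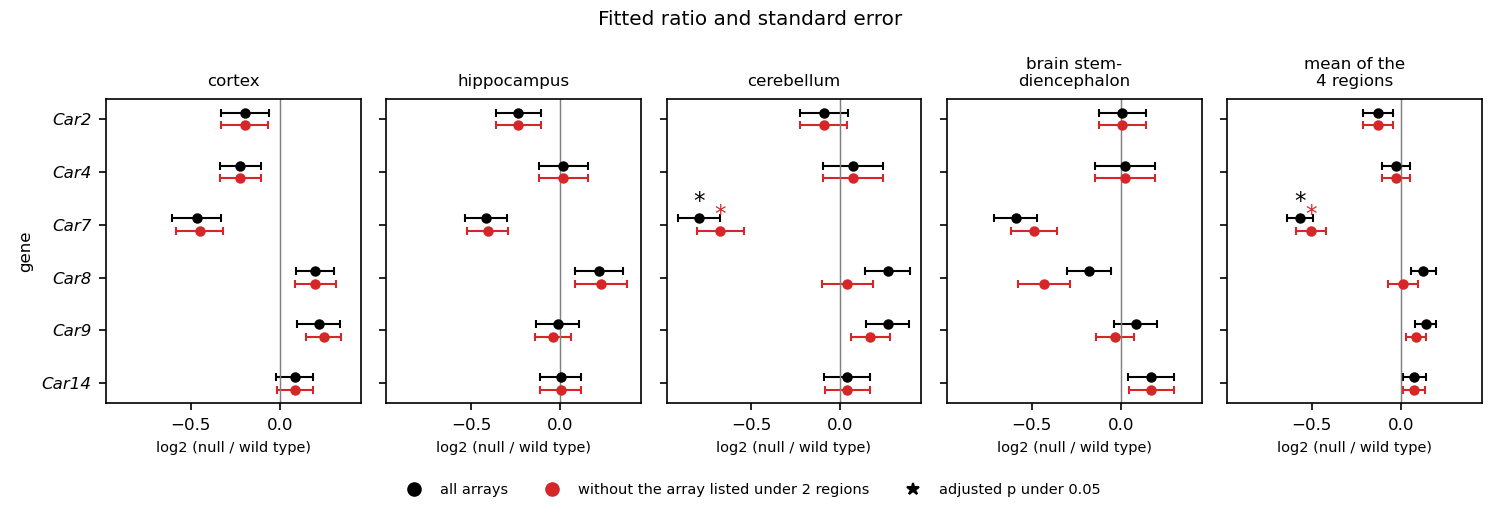
Fitted log2 ratio of null over wild type (x axis) with its standard error for each carbonic anhydrase (y axis), in each region and in the mean of the 4 regions. Black points use all arrays and red points leave out the repeated array. Car7 lies lowest in every panel, and Car8 comes closest to it in brain stem-diencephalon without the repeated array (-0.43 against -0.49).

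Markers of neurons were set beside Car7, since it is a neuronal enzyme. Of 8 markers on that list, 2 were tested. Tubb3, a neuronal tubulin, fell by 0.66 ± 0.11 in the mean of the regions (n = 13, limma adjusted p = 0.00123), and Nefl, the light neurofilament chain, was at -0.05 (adjusted p = 0.674). In cerebellum they were at -0.76 and -0.18. Of 7 astrocyte markers, 2 were tested. The glutamate transporter gene Slc1a3 rose by 0.14 in the mean (adjusted p = 0.0378, and 0.132 without the repeated array), and Gja1, a gap junction gene, was at 0.00. The part of these cells in the Car7 result was not tested.

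Car8, a relative without enzyme activity that is abundant in Purkinje cells and binds the inositol trisphosphate receptor, did not pass in any region or in the mean. Cortex had a fitted Car8 ratio of 0.20 ± 0.11 (n = 4), followed by 0.22 ± 0.14 in hippocampus (n = 3), 0.26 ± 0.12 in cerebellum (n = 3, limma adjusted p = 0.227) and -0.18 ± 0.12 in brain stem-diencephalon (n = 3, adjusted p = 0.556). The mean was 0.13 ± 0.07 (n = 13, adjusted p = 0.198). The values of 2 regions turned on the repeated array. Car8 also differed between the dye orientations. The 12 channel 1 arrays had a mean of -0.13. The 7 swapped arrays had a mean of 0.48, with 6 above 0, both copies of the repeated array included. By region, the channel 1 and swapped means were 0.11 and 0.18 in cortex and 0.12 and 0.21 in hippocampus. They were -0.17 and 0.88 in cerebellum and -0.59 and 0.51 in brain stem-diencephalon, which both hold the repeated array.

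In brain stem-diencephalon the Car8 ratio was -0.46, -0.72 and -0.60 on the channel 1 arrays, -0.13 on the swapped array of number 1 and 1.15 on the repeated array. In cerebellum it was -0.56, 0.01 and 0.04 on the channel 1 arrays, 0.62 on the swapped array of number 2 and 1.15 on the repeated array. Apart from the repeated array, every brain stem-diencephalon value was thus below 0. In hippocampus the 4 arrays with a value gave 0.20, 0.13, 0.03 and, swapped, 0.21, all above 0. In cortex they ran from -0.02 to 0.37, with a median of 0.13. Brain stem-diencephalon overlapped with neither of these regions only when the repeated array was left out, and its highest remaining value, the swapped -0.13, lay near the lowest of cortex. How many of all features separate in this way was not counted.

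Without the repeated array the fitted Car8 ratio was -0.43 ± 0.15 in brain stem-diencephalon (n = 3, unadjusted p = 0.0104, limma adjusted p = 0.281) and 0.04 ± 0.15 in cerebellum. The mean moved from 0.13 to 0.01. Cortex minus brain stem-diencephalon was 0.63 ± 0.17 (unadjusted p = 0.00299, adjusted p = 0.658), and hippocampus minus brain stem-diencephalon was 0.66 ± 0.18 (95% interval 0.27 to 1.05, unadjusted p = 0.0028, adjusted p = 0.997). With all arrays these differences were 0.37 ± 0.16 and 0.40 ± 0.17 (adjusted p = 0.805 and 1). For equal ratios in all regions, the F test gave an unadjusted p of 0.00912 without the repeated array (adjusted p = 0.981) and 0.0734 with it. Of all features, 4.22% had an unadjusted p of the F test under 0.05 with all arrays. A regional difference of Car8 therefore failed the adjustment. Of the 8 Purkinje cell markers fixed for this comparison, 3 were tested and none passed by limma: in cerebellum Pcp2 was at -0.06, Calb1 at 0.09 and Rora at 0.71 (adjusted p = 0.118).

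Car2, the abundant cytosolic enzyme of oligodendrocytes and choroid plexus, lay below 0 on 14 of 16 arrays, with a lowest value of -0.62, a median of -0.28 and a highest of 0.68. The values differed between the dye orientations. On the 11 arrays with the null RNA in channel 1 the mean was -0.38 and every value was below 0, while the 5 swapped arrays had a mean of 0.07, with 2 values above 0. In cortex the channel 1 arrays gave -0.54, -0.62 and -0.38 and the swapped array 0.11. In hippocampus they gave -0.37 and -0.32, and the swapped arrays -0.01 and -0.24. In cerebellum they gave -0.15, -0.19 and -0.52, and the swapped array -0.19. In brain stem-diencephalon they gave -0.34, -0.49 and -0.23, and the swapped array 0.68. The 2 orientations overlapped in cerebellum and in no other region, each with only 1 or 2 swapped values. How many of all features separate by orientation was not counted, so this cannot be read as a trait of Car2. The repeated array was empty for Car2.

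The model estimated a Car2 orientation term of -0.29 ± 0.13 (SE), meant to hold the part of a ratio that follows the channel. Arrays of one number were averaged before the fit, so the term rests on differences between replicates. It can therefore mix dye with differences between samples. With the orientation term, cortex had a fitted Car2 ratio of -0.20 ± 0.13 (n = 3) and hippocampus one of -0.23 ± 0.13 (n = 2). Cerebellum was at -0.09 ± 0.13 and brain stem-diencephalon at 0.01 ± 0.13 (n = 3 each). The mean was -0.13 ± 0.08 (n = 11, limma adjusted p = 0.276, 95% interval -0.31 to 0.05). Without the orientation term the mean was -0.28 ± 0.07 (adjusted p = 0.00815), and the brain stem-diencephalon value turned to -0.19. The only marker tested of the 11 of oligodendrocytes and myelin was Mbp, myelin basic protein, at -0.04 in the mean (0.09 without the repeated array) and -0.32 in cortex (adjusted p = 0.8 and 0.216). Of 8 choroid plexus markers only Ttr, transthyretin, was tested. It fell by 1.05 in cerebellum (adjusted p = 0.0216, and 0.321 without the repeated array) and by 0.31 in the mean (adjusted p = 0.0422, and 0.637 without that array). It was at -0.70 in cortex (adjusted p = 0.0501), 0.68 in hippocampus (adjusted p = 0.159) and -0.19 in brain stem-diencephalon (adjusted p = 0.719), where it was 0.41 without that array. The part of either cell type in the Car2 values was not tested.

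Car4, anchored to the outer membrane face and known from brain capillaries, also differed between the dye orientations, as Car2 did. The 9 channel 1 arrays had a mean of -0.26, with 8 below 0, and the 6 swapped arrays a mean of 0.22, with 5 above 0. In cortex the channel 1 arrays gave -0.09 and -0.77, and the swapped arrays -0.15 and 0.12. In hippocampus the channel 1 arrays gave -0.10, -0.19 and -0.48, and the swapped arrays 0.42 and 0.33. In cerebellum the values were 0.06, -0.39 and, swapped, 0.40, and in brain stem-diencephalon -0.07, -0.32 and, swapped, 0.21. The orientations overlapped in cortex and in no other region, again without a count of all features that separate in this way. The channel 1 arrays of number 3 were the lowest of each region, at a mean of -0.49. In the same orientation, number 1 had a mean of -0.09 (3 arrays) and number 2 one of -0.07 (2 arrays). Number 3 had no dye swap, so dye and sample cannot be told apart in its distance from 0.

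The Car4 orientation term was -0.31 ± 0.10, and 4.74% of features had a term at least as large in size. This share was 5.46% for Car2, 47.2% for Car7, 32.7% for Car8 (-0.14 ± 0.10) and 40.4% for Car9 (-0.12 ± 0.09). Cortex had a fitted Car4 ratio of -0.22 ± 0.11 (n = 4, limma adjusted p = 0.229). Hippocampus was at 0.02 ± 0.14 (n = 3), cerebellum at 0.07 ± 0.17 (n = 2) and brain stem-diencephalon at 0.03 ± 0.17 (n = 2). The mean was -0.03 ± 0.08 (n = 11, adjusted p = 0.832). The cortex value passed without cortex replicate 1 (-0.41, limma adjusted p = 0.0157) and without the channel 1 arrays of number 1 (-0.39, adjusted p = 0.0214). The latter setting also removes cortex replicate 1, so it is no separate case for cortex. Vessel markers were set beside Car4. Of 9 on the list, 2 were tested, and both fell in the mean, where 12.9% of all features passed as lower. Pecam1, an adhesion molecule of endothelium, fell by 0.44 ± 0.07 (n = 12, limma adjusted p = 0.00173). Cdh5, the endothelial cadherin, fell by 0.53 ± 0.17 (n = 12, adjusted p = 0.0383, and 0.0982 without the repeated array). In cortex they were at -0.43 and -0.75 (adjusted p = 0.0508 and 0.117). In hippocampus, where Car4 was at 0.02, Pecam1 fell by 0.53 (adjusted p = 0.0282) and Cdh5 was at -0.40 (n = 2, adjusted p = 0.663). Their part in the Car4 value was not tested.

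**Figure D3:**
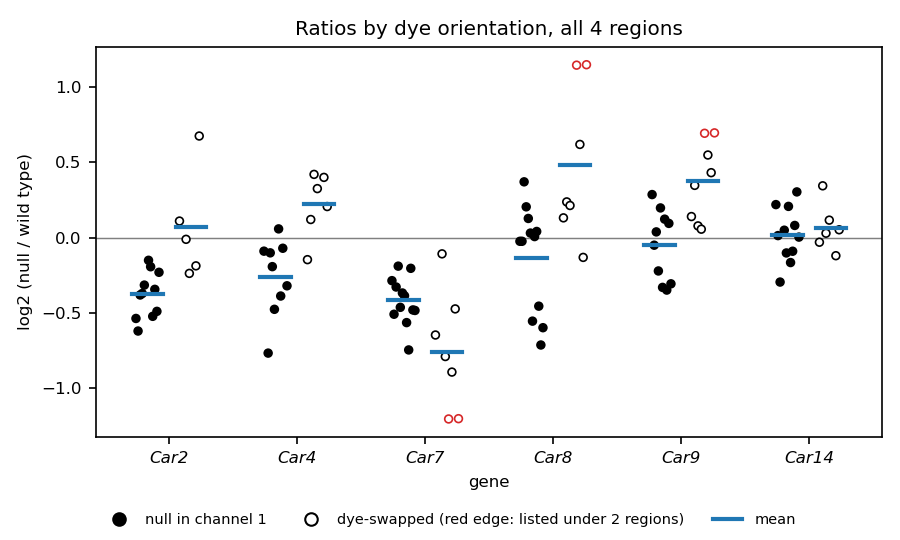
Log2 ratio of null over wild type (y axis) on every array for each carbonic anhydrase (x axis), split into arrays with the null RNA in channel 1 (filled) and dye swaps (open, with a red edge for the repeated array). Bars mark means. For Car2 and Car4 the channel 1 means are -0.38 and -0.26 and the swapped means 0.07 and 0.22, while Car7 has both means below 0, at -0.42 and -0.76. Car8 and Car9 also have higher swapped means (0.48 and 0.37) than channel 1 means (-0.13 and -0.05).

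Car9, a membrane enzyme with an outward active site whose gene is induced by low oxygen, was above 0 on 13 of 18 arrays, from -0.35 to 0.70 with a median of 0.11. All 8 swapped arrays were above 0 (mean 0.37), whereas 5 of the 10 channel 1 arrays were below it (mean -0.05). The counts of 18 and 8 arrays, the median and the swapped mean hold both copies of the repeated array, the highest Car9 values. In cortex the arrays gave 0.29 and, swapped, 0.14 and 0.35. In hippocampus they gave -0.05, 0.04, -0.22 and, swapped, 0.08 and 0.06. In cerebellum they gave 0.20, -0.33, 0.12 and, swapped, 0.69 (the repeated array) and 0.55. In brain stem-diencephalon they gave -0.35, 0.09, -0.31 and, swapped, 0.43 and 0.70 (the repeated array). In hippocampus, cerebellum and brain stem-diencephalon, the swapped values stood above every channel 1 value. The share of all features that separate in this way was not counted for Car9 either.

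Cortex had a fitted Car9 ratio of 0.22 ± 0.12 and cerebellum one of 0.27 ± 0.12 (SE, n = 3 each). Hippocampus was at -0.01 ± 0.12 and brain stem-diencephalon at 0.08 ± 0.12 (n = 3 each). The cerebellar value had an unadjusted p of 0.0459 and a limma adjusted p of 0.213. Without the repeated array it was 0.17 ± 0.11 (unadjusted p = 0.148, adjusted p = 0.472), and the brain stem-diencephalon value was -0.03. Without cortex replicate 3 the cortex value was -0.07. The mean was 0.14 ± 0.06 (n = 12, above 0 in 10 of 12 replicates, unadjusted p = 0.0391, adjusted p = 0.107). It was 0.08 without the repeated array (adjusted p = 0.296), and it passed with every array as a replicate (adjusted p = 0.0262) and without the channel 1 arrays of number 1 (adjusted p = 0.0485). No difference in Car9 was thus called by the test as planned.

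Other genes that low oxygen is known to induce were set beside Car9. Of 15 on the list, 10 were tested, and in the mean of the regions 1 rose and 3 fell, where 26.1% of all features passed, with a median of -0.07 against 0.01 for all features. Bnip3, a mitochondrial death and mitophagy factor, rose by 0.19 (limma adjusted p = 0.0159, and 0.0548 without the repeated array). Pfkfb3, which makes an activator of glycolysis, fell by 0.28 ± 0.07 (n = 13, adjusted p = 0.00759). Ldha, lactate dehydrogenase, fell by 0.23 (adjusted p = 0.0131), and Adm, adrenomedullin, fell by 0.16 (adjusted p = 0.0146). In cerebellum only Pfkfb3 of the 10 passed, where it fell by 0.47 (adjusted p = 0.044, and 0.0932 without the repeated array).

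Car14, a membrane enzyme of neurons and axons with an outward active site, stayed between -0.30 and 0.34 on 17 arrays, with a median of 0.03. Cortex had a fitted ratio of 0.08 ± 0.10 (n = 4) and hippocampus one of 0.003 ± 0.12 (n = 3). Cerebellum was at 0.04 ± 0.13 and brain stem-diencephalon at 0.17 ± 0.13 (n = 3 each). The mean was 0.07 ± 0.06 (n = 13, 95% interval -0.06 to 0.21, limma adjusted p = 0.42). The interval leaves room for a change of up to 0.21 log2 units upward. In brain stem-diencephalon all 4 arrays with a value were above 0, at 0.08, 0.30, 0.003 and, swapped, 0.05.

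As a group the 6 genes did not move one way. In the mean of the regions 3 ratios were below 0 and 3 above, with a median of 0.02 against 0.01 over all features. In cortex 4.12% of features passed, in hippocampus 0.661% and in brain stem-diencephalon 0.361%, and no carbonic anhydrase passed in these regions by limma. An unadjusted p under 0.05 was found for 1 member in each of the 3, which was Car7. None of the 6 pairwise differences between regions was called for a member, where 0.012% of features passed for cortex minus hippocampus, 0.0481% for cortex minus cerebellum and 0% for the others, nor was the F test, which no feature passed. Unadjusted, 1 member was under 0.05 in 4 of the 6 pairwise differences (Car7 for hippocampus minus cerebellum, Car8 for each region minus brain stem-diencephalon) and no member in the F test. The Car8 differences all share brain stem-diencephalon. The share of all features under this unadjusted cut is not given for regions or pairs, so these counts cannot be weighed against it. Of the 10 other family members on the list, Car1 and Car12 had a probe, and both had too few values to be tested. Car1, the erythrocyte enzyme, was above 0 on 12 of 13 arrays, from -0.02 to 0.50 with a median of 0.24. Car12, a membrane enzyme, had 4 values from -0.69 to 0.10. Of 6 erythrocyte markers 1 was tested: Hbb-b1, a beta globin, rose by 0.56 ± 0.10 in the mean (n = 12, adjusted p = 0.00297) and by 0.63 in cortex (adjusted p = 0.0433). The part of red cells in the Car1 values was not tested.

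Of 40 genes of acid-base transport, 9 were on the array and 6 were tested. In the mean 1 rose and 1 fell, where 26.1% of all features passed, and the median was -0.14 against 0.01 over all features. Slc9a3r1, a scaffold protein that holds transporters at the membrane, fell by 0.35 ± 0.07 (n = 13, limma adjusted p = 0.00475, and 0.0235 without the repeated array) and by 0.47 ± 0.12 in cortex (n = 4, adjusted p = 0.0459). Chp1, a calcineurin-like calcium-binding protein, rose by 0.25 ± 0.07 (n = 12, adjusted p = 0.0233). The anion exchangers Slc4a2 and Slc4a3, the lactate transporter Slc16a3 and its chaperone Bsg did not pass in the mean or in any region, with means from -0.17 to -0.11. Car7, at -0.57, had the lowest mean ratio among these genes and the carbonic anhydrases together.

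**Figure D4:**
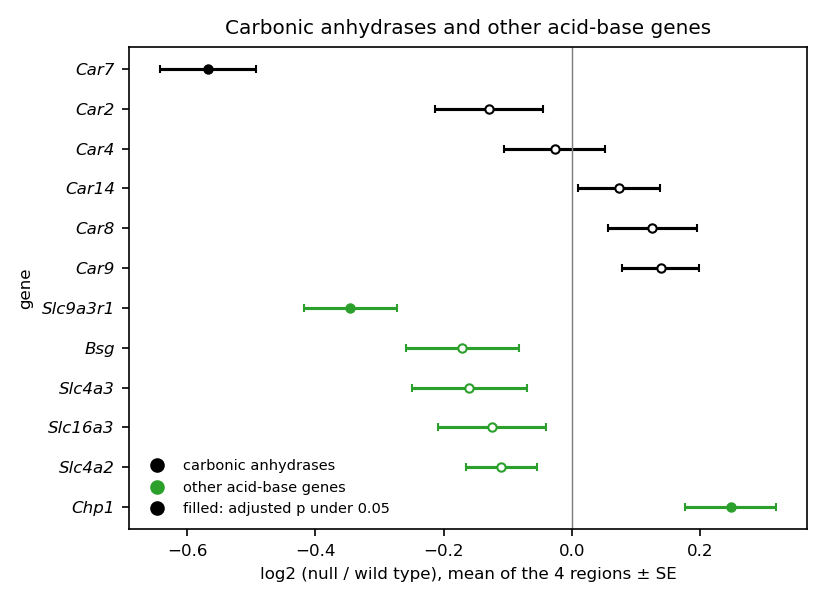
Mean of the 4 regions of the log2 ratio of null over wild type (x axis), with its standard error, for the 6 carbonic anhydrases (black) and the 6 other acid-base genes tested (green). Filled points passed an adjusted p of 0.05. Car7 (-0.57) and Slc9a3r1 (-0.35) lie below 0 and Chp1 (0.25) above it, and the other 9 points are open.

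The genes whose replicate ratios were most like those of Car7 were Nedd8 (Pearson r = 0.917 over 12 replicates, 0.839 without the repeated array), which codes for a ubiquitin-like protein, Ets2, a transcription factor gene (0.864 and 0.666), and 4933429D07Rik (0.863 and 0.782). For Car8 they were Mrps25, a mitochondrial ribosomal protein gene (0.897 over 13 replicates, but 0.312 without the repeated array), Zmym2 (0.809 and 0.670) and Elp4 (0.783 and 0.661). The nearest to Car2 was Skap2 (0.869 over 11 replicates), to Car4 Trappc13 (0.878 over 11), to Car9 Prkci (0.875 over 12) and to Car14 Cant1 (0.822 over 13). These correlations were picked as the highest of 3617 or 3618 genes, share arrays and reference RNA, and are descriptions without a test.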

How the data were processed

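Labelled RNA of 4 brain regions was measured on 20 arrays with 2 channels. The values deposited by the authors are log ratios of the channels, read here as log2 ratios and already centred near 0. The sources used here describe neither image analysis nor normalization. All columns were mapped to a sample. Swapped arrays were multiplied by -1, and medians were subtracted array by array. Probes with under 3 values in any region, or none in either orientation there, were left out. Probes of a gene were averaged (8319 features), then arrays of one number. A model with a term per region and an orientation term was fitted in R 4.3.3, with variances moderated by limma 3.58.1 (prior degrees of freedom 6.04), and p-values were adjusted by Benjamini-Hochberg over all features, threshold 0.05. The script was tested on simulated data. The alternatives changed centring, scaling, filter, moderation, orientation term, averaging and arrays, with a replicate block and each replicate left out. Probe names came from the platform annotation, updated through Entrez IDs.

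Members and lists were chosen with earlier results of these data known. Every member was named. Of the acid-base list the rule named the genes that passed, of each marker list and the hypoxia list the 2 genes of smallest p in the region discussed, and for likeness 3 genes a member. Beyond it, the other acid-base, hypoxia, Purkinje cell and microglia genes given were added after their values were seen. The mutated gene is not reported here.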

Additional observations from a re-analysis of the deposited data

Results flagged for a closer look

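Of 21 member and region groups with 4 or 5 arrays that were examined for a value far from the others, 2 held one, and chance gives about 1 in 20. Car7 in brain stem-diencephalon had its lowest value, -1.21, on the repeated array, where the nearest of the other 4 arrays was at -0.49. Car2 in cerebellum had its lowest value, -0.52, on the channel 1 array of number 3, where the nearest of the other arrays was at -0.19.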

How the results depend on the processing

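The fitted log2 ratios of the members took 863 values under 26 settings, of which 810 kept their direction and their side of the threshold, 3 lost a call (Car7 in cerebellum), 14 gained one and 36 turned sign; the cause was not tested. The count of members called was 1 in cortex and 1 in hippocampus with every array as a replicate (0 as planned), 1 in cortex without the channel 1 arrays of number 1, and 0 in cerebellum with a variance trend and robust moderation (1 as planned). In brain stem-diencephalon it was 1 without the orientation term, with every array as a replicate or with the replicate block (0 as planned). In the mean it was 2 without the orientation term, with every array as a replicate or without the channel 1 arrays of number 1 (1 as planned). Leaving out each replicate in turn gave 0 to 2 called members in cortex, 0 to 1 in cerebellum, 0 to 1 in brain stem-diencephalon, and 1 in the mean each time. Car7 passed in cortex without cortex replicate 1 (adjusted p = 0.0361) or hippocampus replicate 1 (0.0296), and in brain stem-diencephalon without hippocampus replicate 1 (0.0252) or brain stem-diencephalon replicate 1 (0.0477). Only features complete in every replicate, which Car7 was not, gave no count of members.

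No value that turned sign was called. Without the orientation term these were Car2 in brain stem-diencephalon (-0.19), Car4 in hippocampus (-0.084), cerebellum (-0.080) and brain stem-diencephalon (-0.13), and Car14 in cerebellum (-0.0090). Arrays not centred gave Car2 in brain stem-diencephalon -0.00393, and arrays scaled to one spread gave Car4 -0.00308 in hippocampus and -0.00473 in brain stem-diencephalon. Every array as a replicate gave Car9 0.022 in hippocampus and Car14 -0.031 in cerebellum. Without the channel 1 arrays of number 1, Car4 was -0.057 in brain stem-diencephalon and Car14 -0.075 in cerebellum. Car9 in brain stem-diencephalon was -0.032 without the repeated array and -0.013 with it under cerebellum only, an alternative chosen after seeing the data. With a replicate left out, Car2 ran from -0.18 to 0.028 in cerebellum and -0.19 to 0.085 in brain stem-diencephalon. Car4 ran from -0.060 to 0.11 in hippocampus, -0.11 to 0.23 in cerebellum, -0.024 to 0.093 in brain stem-diencephalon and -0.079 to 0.022 in the mean. Car9 ran from -0.068 to 0.32 in cortex, -0.047 to 0.050 in hippocampus and -0.090 to 0.22 in brain stem-diencephalon. Car14 ran from -0.036 to 0.19 in cortex, -0.037 to 0.032 in hippocampus and -0.072 to 0.16 in cerebellum.

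The count of all features called moved more. Apart from leaving out each replicate in turn, it was 2 to 1558 in cortex (343 as planned), 14 to 500 in hippocampus (55) and 28 to 1451 in cerebellum (255). In brain stem-diencephalon it was 13 to 319 (30) and in the mean 1407 to 3589 (2172). The 1558 came without the channel 1 arrays of number 1, which also removed cortex replicate 1. With each replicate left out in turn, the counts were 6 to 1689, 13 to 67, 20 to 456, 17 to 38 and 944 to 2575. Arrays of one number deviated together in 14 of 18 pairs of replicates (correlation above 0.1, range -0.03 to 0.57), and 12 of 12 replicates correlated best with one of their own number, a hint of pairing from the data and not from the design. Pairing was taken only where every pair was above 0.1, which was not met. With the replicate block (correlation 0.24) the counts of all features were 688, 85, 495, 39 and 1417, Car7 passed in brain stem-diencephalon (-0.58, adjusted p = 0.0496), and no other call of a member changed.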

Other observations

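Microglia genes were not part of any comparison of the carbonic anhydrases. Of 6 markers 3 were tested, the complement genes C1qa, C1qb and C1qc, and none passed by limma in a region or in the mean. In cerebellum, the region where Car7 was called, they were at 0.58, 0.43 and 0.38 (adjusted p = 0.0592, 0.0605 and 0.0993), and at 0.30, 0.52 and 0.38 without the repeated array. In cortex all 3 were below 0, at -0.22, -0.33 and -0.18.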
